A study of Mus musculus with 12 samples.

Results

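The genes described here encode the nuclear part of the respiratory chain and the ATP synthase of mitochondria. They were chosen by symbol: protein-coding genes whose mouse symbol is Ndufa, Ndufb, Ndufc, Ndufs or Ndufv with a number, Sdha to Sdhd, a symbol that begins with Uqcr or Uqcc, Cyc1, a subunit named Cox4 to Cox8, or a symbol that begins with Atp5. This rule found 86 of the 19268 genes in the table. Complex I had 37 of them, complex II had 4, complex III had 12, complex IV had 16 and complex V had 17. Ndufb1-ps and Ndufb4c have matching symbols but were left out, because the annotation lists the former as a long non-coding RNA and the latter as a pseudogene. Cox7b2 and Cox8c match the rule and were not among the genes analysed here. By the symbols used here, Ndufa4 counts with complex I, although the protein is now usually assigned to complex IV, and Atp5s is the gene now called Dmac2l.

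RNA was taken from male mice of the C57BL/6J strain, as forebrain, at 2 ages: juvenile mice at postnatal day 25 (P25) and adult mice at postnatal day 60 (P60). WT mice were wild-type, and KO mice carried a homozygous germline deletion of internal exons of Shank3, a scaffold protein of excitatory synapses, so every cell of the KO tissue carried the deletion. The 4 groups, P25-WT, P25-KO, P60-WT and P60-KO, had 3 libraries each, 1 per mouse.

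Complex I takes electrons from NADH and complex II takes them from succinate. Both pass them through ubiquinone to complex III, cytochrome c and complex IV, which reduces oxygen, and the proton gradient built on the way drives ATP synthesis by complex V. Most subunits are made from nuclear genes and imported, while a small set is encoded by the mitochondrial genome. Neurons depend heavily on this route for the ATP that restores ion gradients after synaptic activity, and the factors NRF1, GABPA (an ETS-type factor) and YY1 are known regulators of many of these genes.

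The promoters of 4 genes whose level fell between the ages are shown because each holds a letter match to NRF1 or ETS before both the RefSeq and the GENCODE start of the gene. Each stretch is 150 bases that end just before the outer of these starts, in the direction of transcription, and was taken from RefSeq promoter windows of build GRCm38.p6. Capitals mark the NRF1 core (GCGCATGC) or the ETS core (CCGGAAG) on either strand. Uqcr11 lies on chromosome 10 (minus strand, chr10:80406831-80406980), Cox6a1 on chromosome 5 (minus strand, chr5:115348982-115349131), Ndufa11 on chromosome 17 (plus strand, chr17:56717612-56717761) and Atp5e on chromosome 2 (minus strand, chr2:174464106-174464255).
Uqcr11: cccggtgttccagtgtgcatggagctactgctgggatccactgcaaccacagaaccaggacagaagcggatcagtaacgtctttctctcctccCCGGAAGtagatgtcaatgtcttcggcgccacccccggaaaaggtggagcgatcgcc
Cox6a1: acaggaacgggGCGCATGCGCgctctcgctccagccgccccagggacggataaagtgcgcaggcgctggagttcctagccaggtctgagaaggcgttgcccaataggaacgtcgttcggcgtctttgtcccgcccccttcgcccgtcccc
Ndufa11: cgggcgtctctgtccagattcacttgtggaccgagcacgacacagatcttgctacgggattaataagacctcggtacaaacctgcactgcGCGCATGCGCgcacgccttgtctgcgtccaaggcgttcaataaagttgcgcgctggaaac
Atp5e: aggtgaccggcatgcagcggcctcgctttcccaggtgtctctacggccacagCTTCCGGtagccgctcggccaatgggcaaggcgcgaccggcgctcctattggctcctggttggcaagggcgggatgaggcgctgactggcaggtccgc

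In Cox6a1 and Ndufa11 the NRF1 core is read on both strands of the same stretch, so that overlapping matches make 1 run of capitals. The Uqcr11 match is to the ETS core as written, and the Atp5e match is to its reverse complement. Outside the printed stretches, Uqcr11 also has an NRF1 core from base -4 to base 4 around the RefSeq start. Cox6a1 also has an ETS core there, from base -16 to base -10.

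Promoter windows from 250 bases before to 50 bases after the RefSeq start were at hand for 70 of the 86 genes. A gene was counted if any of its windows held the motif. The NRF1 core occurred in 10 of these 70 genes (14.3%) and in 3.05% of 27025 genes. The ETS core occurred in 16 (22.9%, against 9.93% of all genes), and the YY1 core (AAGATGGC) in 11 (15.7%, against 3.19%). In all, 31 of the 70 genes (44.3%) held at least 1 of the 3 motifs on either strand, and 14.9% of all genes did. The positions differed between the motifs: of the 11 genes with the YY1 core, 9 had it after the start, between base 12 and base 46 of the transcript, while the NRF1 core lay wholly before the start in 8 of 10. These are matches of letters, and binding was not measured.

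The values are counts that the authors normalized between libraries, called normalized counts here. The 86 genes were among the more abundant transcripts of the forebrain. Levels were compared between genes as normalized counts per kilobase of the shortest principal transcript, a scale that allows for length. For 7 of the 86 genes, among them Uqcrq and Atp5g1, the annotation holds another principal transcript over 1.5 times longer, and their levels on this scale depend on which is used. On it, 81 of the 86 genes lay above the median of all genes in the table (152.4 normalized counts per kilobase), and 72 were in the top 10%. Cox8a, a small subunit of complex IV, was the highest of all at 18618 normalized counts per kilobase, followed in complex V by Atp5b, the catalytic beta subunit of the F1 head, at 16303. The highest in complex I was Ndufa4 at 10316, in complex III Uqcrq, a small subunit at the ubiquinone site, at 7397 with a transcript of 405 bases, and in complex II Sdha, the flavoprotein that oxidizes succinate, at 3890. With its longer transcript of 1521 bases Uqcrq was at 1970 normalized counts per kilobase, below Uqcrh at 5416, while the highest gene of each other complex stayed the same. The lowest in each complex were Ndufa4l2 (72.5), Sdhc (705), Uqcc3 (450), Cox8b (21.7) and Atp5s (239). Levels within a complex thus differed widely, and the lowest members of complexes I and IV were alternative forms known from other tissues. No gene had a value of 0 in any library.

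Where a subunit has several genes, 1 or 2 forms made up nearly all of the transcript. Cox4i2, the form induced by low oxygen and abundant in lung, gave 0.301% ± 0.0896 of the Cox4i level per kilobase at P25 and 0.395% ± 0.0516 at P60 (SD, n = 6). The muscle forms Cox6a2, Cox7a1 and Cox8b gave 1.73%, 0.938% and 0.127% of their sets at P25, and the testis form Cox6b2 gave 1.49%. Cox7a2 and Cox7a2l, a factor that joins complexes III and IV into supercomplexes, shared the Cox7a set with 55.5% and 43.5%. The c-ring of ATP synthase, the rotor that protons turn, is encoded by 3 genes with the same mature protein. Atp5g1 gave 45.9% ± 1.49 of the c-ring level at P25 and 40.9% ± 1.31 at P60 (SD, n = 6), and Atp5g3 gave 49.6% ± 1.27 and 54.5% ± 0.632. These shares rest on the Atp5g1 transcript of 596 bases: with the longest principal transcripts (4715 bases for Atp5g1), Atp5g1 gave 10.1% ± 0.537 and 8.39% ± 0.376, and Atp5g3 gave 85.2% ± 0.488 and 87.2% ± 0.664. With the shortest, Atp5g2 gave 4.49% ± 0.374 and 4.55% ± 1.01, and 40.2% of the 31-base words of its transcript also occur in other genes, more than for any other of the 86.

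The library totals were close, from 30568259 to 32348554 normalized counts, and Shank3 itself was lower in all KO libraries than in all WT libraries at both ages (5174 ± 481 against 10779 ± 786 at P25, SD, n = 3). Transcripts of the 86 genes made up 0.888% to 1.30% of the total at P25 and 0.817% to 0.877% at P60, so the ages did not overlap. P25-WT replicate 2 stood apart with 1.30%, and the next highest library had 1.04%. Its mean log2 deviation from the 12-library mean over 85 genes was 0.56, while the other P25 libraries lay between -0.07 and 0.20 and the P60 libraries between -0.21 and -0.08. The cytosolic ribosomal protein genes were raised in the same library (0.58, the other 11 libraries between -0.19 and 0.22). Results are therefore also given without this library. The 5 neuron markers summed to between 148826 and 164897 normalized counts in every library. They mark neurons of other brain regions too, so they do not check the forebrain label.

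**Figure D1:**
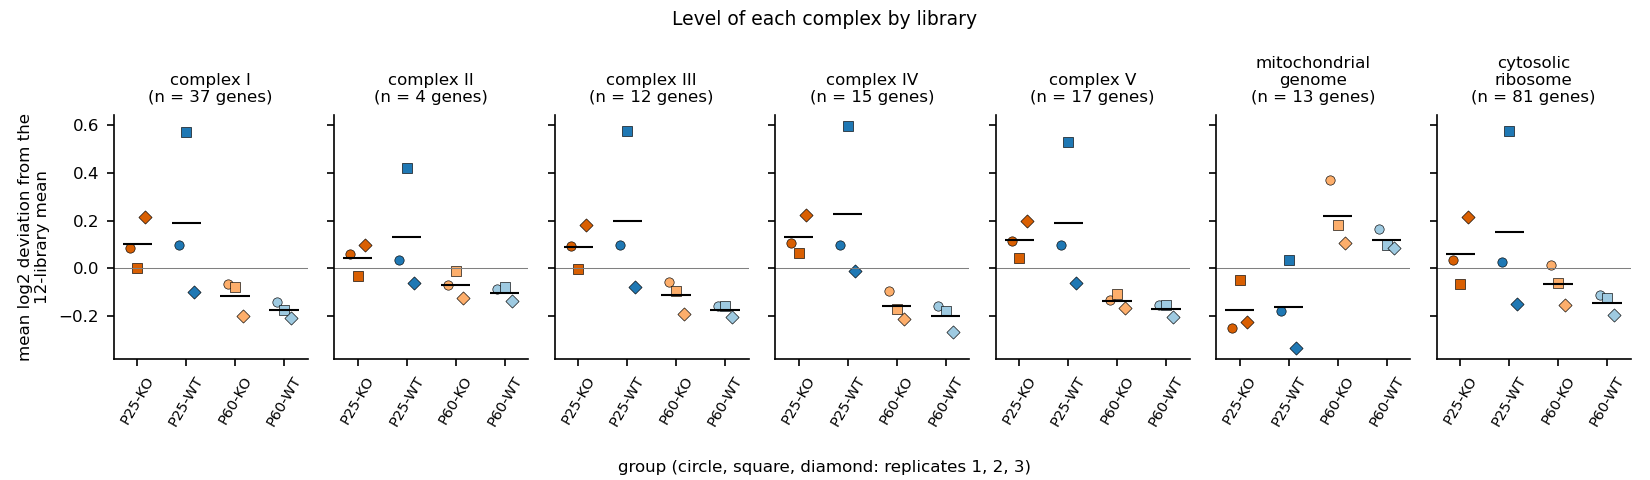
Mean log2 deviation from the 12-library mean (vertical axis) for the genes of each complex, the mitochondrial genome and the cytosolic ribosome, 1 point per library by group (horizontal axis). Black lines are group means. P25-WT replicate 2 (square) is the highest point of all 5 complexes, the P60 libraries lie below 0 in all 5, and the genes of the mitochondrial genome lie the other way.

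Most of the genes were lower in the adult than in the juvenile forebrain. Differences are of log2(normalized counts + 1), given with their standard error. Over both genotypes, with genotype in the model, 49 of 85 genes tested were lower at P60 and 1, Sdha, was higher (limma, Benjamini-Hochberg adjusted p under 0.05 over 17594 genes). Of all genes tested, 18.5% were lower and 17.5% were higher. The median log2 difference of the 85 genes was -0.29, against 0.00 for all genes, and 78 of 85 had a negative value. For 28 genes all 6 P60 libraries lay below all 6 P25 libraries, which held for 10.8% of all genes. Without P25-WT replicate 2, 51 genes were lower and 4 higher (Sdha, Ndufc2, Uqcrc2 and Atp5j), against 19% lower and 17.6% higher of all genes in that fit, with a median of -0.19. In that fit 49 of the 50 calls remained, Ndufb11 was lost, and Ndufa4, Ndufs5 and Atp5c1 were called as lower besides. The difference became over 1.5 times smaller for 29 of the 85 genes, among them 23 of the 35 that had not passed, and it turned sign for Ndufa6, Ndufb4 and Cox7b. Scaling every library to the same total gave 41 lower and 2 higher, and moved the calls over all genes to 14.9% lower and 22% higher. In bulk tissue, fewer cells of a type and less RNA per cell cannot be told apart.

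The 4 groups were also set side by side by the mean log2 deviation of a complex from the 12-library mean, per library and then per group (± SD, n = 3, with no test). Complex I stood at 0.10 ± 0.11 in P25-KO, 0.19 ± 0.35 in P25-WT, -0.12 ± 0.07 in P60-KO and -0.17 ± 0.03 in P60-WT. For complex II the 4 values were 0.04 ± 0.07, 0.13 ± 0.26, -0.07 ± 0.06 and -0.10 ± 0.03 in the same order. Complex III had 0.09 ± 0.09, 0.20 ± 0.34, -0.11 ± 0.07 and -0.17 ± 0.03. Complex IV, with the widest step between the ages, had 0.13 ± 0.08, 0.23 ± 0.32, -0.16 ± 0.06 and -0.20 ± 0.06. In complex V they were 0.12 ± 0.08, 0.19 ± 0.31, -0.14 ± 0.03 and -0.17 ± 0.03. The spread was largest in P25-WT in all 5 complexes, which holds the library that stood apart, and at P25 the genotypes differed by less than its SD. With all libraries P25-WT was highest and P60-WT lowest in all 5 complexes. Without P25-WT replicate 2 the P25-WT means of complexes I to V were -0.0023, -0.015, 0.0086, 0.043 and 0.019, below P25-KO in all 5.

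**Figure D2:**
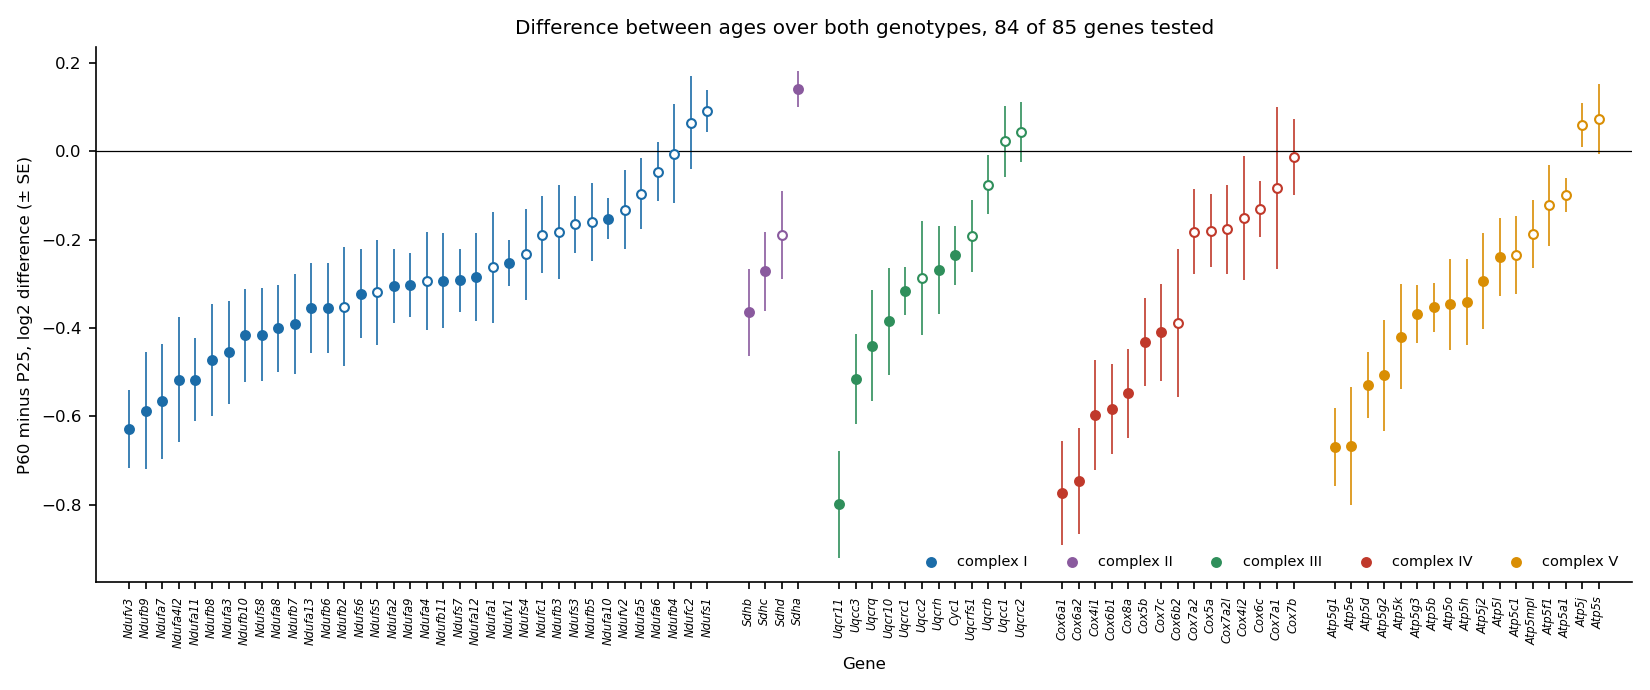
P60 minus P25 log2 difference with its standard error (vertical axis) for 84 of the 85 genes tested (horizontal axis), over both genotypes and ordered within each complex. Filled points passed the adjusted threshold in limma. The values run from -0.80 for Uqcr11 to 0.14 for Sdha, and 7 genes lie above 0.

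Complex I had 22 of its 37 genes lower at P60, none higher, and a median log2 difference of -0.29, or -0.21 without P25-WT replicate 2. Among the core subunits of the arm that carries electrons from NADH to ubiquinone, levels were lower for Ndufv1, which holds the NADH site (-0.25 ± 0.05, adjusted p = 0.00224), Ndufs7, beside the ubiquinone site (-0.29 ± 0.07, adjusted p = 0.00619), and Ndufs8, an iron-sulfur protein (-0.42 ± 0.11, adjusted p = 0.00800). Ndufs3 (-0.17 ± 0.06) and Ndufv2 (-0.13 ± 0.09) did not pass, and without P25-WT replicate 2 they were at -0.11 and -0.034. Ndufs1, the largest core subunit with several iron-sulfur clusters, had a positive value that did not pass (0.09 ± 0.05, adjusted p = 0.148), and it passed as higher when every library was scaled to the same total. Over fits without 1 library the Ndufs1 value ranged from 0.060 to 0.11. Its normalized counts were 4274, 4123 and 4009.6 in P25-KO, 4178, 4253 and 4111 in P25-WT, 4193, 4769 and 4172 in P60-KO and 4416, 4808 and 4257 in P60-WT. Here the ages overlapped, and P25-WT replicate 2 lay within the range of the other P25 libraries.

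The accessory subunits surround this core. Of the Ndufa genes 10 of 14 were lower, of the Ndufb and Ndufc genes 6 of 12, and of the 4 accessory Ndufs and Ndufv genes 2. Ndufv3, a small accessory subunit of the NADH module (ENSMUSG00000024038, chr17:31520115-31531331), had the smallest p in the complex. Its normalized counts were 1452, 1472 and 1681 in P25-KO, 1631, 2121 and 1382 in P25-WT, 1078, 1114 and 1005 in P60-KO and 1097, 982 and 962 in P60-WT. All P60 libraries lay below all P25 libraries, at 64.1% of the P25 mean (log2 difference -0.63 ± 0.09, adjusted p = 0.000177).

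Ndufa11, a membrane-arm subunit whose promoter is shown above (ENSMUSG00000002379, chr17:56717767-56722141), had 1879, 1797 and 2166 in P25-KO, 2162, 2873 and 1800.5 in P25-WT, 1527, 1508 and 1356 in P60-KO and 1561, 1388 and 1410.0 in P60-WT normalized counts. Again no P60 library reached the lowest P25 library, and the log2 difference was -0.52 ± 0.09 (adjusted p = 0.00106). Ndufa4l2, the alternative form of Ndufa4, fell by 0.52 on the log2 scale (adjusted p = 0.0119). Ndufa4 itself did not pass with all libraries (-0.29 ± 0.11, adjusted p = 0.0521) and passed without P25-WT replicate 2 (-0.17 ± 0.05, adjusted p = 0.0274), with 5187 ± 1288 normalized counts at P25 and 4139 ± 93.7 at P60 (SD, n = 6). At the other end, Ndufc2, a membrane-arm subunit, had a log2 difference of 0.07 and did not pass with all libraries, and without P25-WT replicate 2 it was at 0.18 and passed as higher (adjusted p = 0.0386).

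In complex II 2 genes were lower and 1 was higher, the only call of a higher level among the 85 genes in the fit to all libraries over both genotypes. Without P25-WT replicate 2, complexes I, III and V had 1 higher gene each as well. Sdha (ENSMUSG00000021577, chr13:74322254-74350280), which carries the FAD, had 11314, 11018 and 10288 in P25-KO, 10893, 9907 and 10973 in P25-WT, 11331, 11971 and 11919 in P60-KO and 11944, 12042 and 11757 in P60-WT normalized counts. The lowest P60 library was above the highest P25 library, and P25-WT replicate 2, the highest library for most of the genes, was the lowest here. Sdha rose by 0.14 ± 0.04 on the log2 scale (adjusted p = 0.0147), a call that was lost when trends on GC content and transcript length were removed from each library. Sdhb, the iron-sulfur subunit that takes the electrons from Sdha (ENSMUSG00000009863, chr4:140961203-140979193), had 3489, 3313 and 3808 in P25-KO, 3539.8, 5283 and 3134 in P25-WT, 3008, 3029.6 and 2711 in P60-KO and 2859.6, 2886 and 2775 in P60-WT normalized counts. It moved the other way, with all P60 libraries below all P25 libraries (-0.36 ± 0.10, adjusted p = 0.0113). Of the membrane anchors, Sdhc fell (-0.27 ± 0.09, adjusted p = 0.0290), a call lost under the same-total scaling, and Sdhd did not pass (-0.19 ± 0.10, adjusted p = 0.153) and was at -0.073 without P25-WT replicate 2.

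In complex III, 7 of 12 genes were lower at P60 and the median was -0.28, or -0.17 without P25-WT replicate 2. The small subunits accounted for 4 of these, of 5 tested. Uqcr11 (ENSMUSG00000020163, chr10:80402997-80406830), a small subunit on the membrane part, had the largest fall of the 85 genes. Its normalized counts were 2182, 2121 and 2742 in P25-KO, 2353, 3653 and 1929 in P25-WT, 1487, 1424 and 1375 in P60-KO and 1413, 1337 and 1372 in P60-WT. The P60 libraries lay close together (1401 ± 52.1, SD, n = 6), while the P25 libraries were all higher and more spread (2497 ± 629, SD, n = 6). The log2 difference was -0.80 ± 0.12 (adjusted p = 0.000289), and -0.67 without P25-WT replicate 2. Of the 4 larger subunits, cytochrome c1 (Cyc1) fell (-0.24 ± 0.07, adjusted p = 0.0157), and so did the core protein Uqcrc1 (-0.32 ± 0.05, adjusted p = 0.00073). The Rieske iron-sulfur protein Uqcrfs1 did not pass (-0.19 ± 0.08, adjusted p = 0.0820) and was at -0.11 without P25-WT replicate 2. Uqcrc2, the partner of Uqcrc1 in the core, was at 4938 ± 642 at P25 and 5057 ± 126 at P60 (SD, n = 6) and passed as higher in 1 of the fits that left out a library, that without P25-WT replicate 2 (0.12, adjusted p = 0.0154). Of the assembly factors, which help to build the complex and are not part of it, Uqcc3 fell by 0.52 on the log2 scale (adjusted p = 0.00172), and Uqcc1 and Uqcc2 did not pass.

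Complex IV had the lowest median of the 5 complexes (-0.39), with 7 of 15 genes tested lower and none higher. Its median was -0.29 without P25-WT replicate 2, again the lowest. Cox6a1 (ENSMUSG00000041697, chr5:115345642-115348981), the form of subunit VIa outside muscle, had 9208, 8525 and 11178 in P25-KO, 9477, 14899 and 8012 in P25-WT, 6289, 5959 and 5479 in P60-KO and 5929.7, 5797 and 5628 in P60-WT normalized counts. Both genotypes showed the same separation of the ages, and the log2 difference was -0.77 ± 0.12 (adjusted p = 0.000318). Its muscle counterpart Cox6a2, present at 1.73% of the Cox6a level, fell alongside (-0.75 ± 0.12, adjusted p = 0.000463). Cox4i1, a subunit known to bind ATP (ENSMUSG00000031818, chr8:120668222-120674207), had 13506, 11299 and 14972 in P25-KO, 12783, 20824 and 10662 in P25-WT, 9589, 9239 and 8410.2 in P60-KO and 8907, 9273 and 8806 in P60-WT normalized counts. Its P60 libraries were all below its P25 libraries, and it was at 64.5% of the P25 mean (-0.60 ± 0.13, adjusted p = 0.00269). The log2 difference was -0.46 without P25-WT replicate 2.

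The other complex IV genes that fell were Cox5b (-0.43 ± 0.10, adjusted p = 0.00486), Cox6b1, which faces cytochrome c (-0.58 ± 0.10, adjusted p = 0.000739), Cox8a (-0.55 ± 0.10, adjusted p = 0.00111) and Cox7c. Cox5a was at -0.18 ± 0.08 and did not pass (adjusted p = 0.107), and neither did Cox7a2 (-0.18 ± 0.10), Cox7a2l (-0.18 ± 0.10), Cox6b2 (-0.39 ± 0.17), Cox4i2 (-0.15 ± 0.14) or Cox7a1 (-0.08 ± 0.18). Without P25-WT replicate 2, Cox5a was at -0.091, Cox7a2 at -0.077, Cox7a2l at -0.065 and Cox7a1 at -0.032. The values of this complex ran from Cox6a1 to Cox7b (-0.01 ± 0.09, adjusted p = 0.924), which was at 0.084 without that library. Cox8b was too low for the fit over both ages (10.1 ± 4.36 normalized counts at P25 and 5.51 ± 2.55 at P60, SD, n = 6). A two-sided exact permutation test of that gene alone gave p = 0.0736.

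Complex V had 11 of 17 genes lower at P60 and a median of -0.34, or -0.23 without P25-WT replicate 2. All 3 c-ring genes fell, and Atp5g1 (ENSMUSG00000006057, chr11:96068852-96075670) had the smallest p of the 85 genes. Its normalized counts were 4544, 4557 and 5016 in P25-KO, 4955, 6463 and 4061 in P25-WT, 3160.1, 3345 and 2872 in P60-KO and 3092, 2928 and 3034 in P60-WT. All P60 libraries lay below all P25 libraries by a wide gap, at 62.3% of the P25 mean (-0.67 ± 0.09, adjusted p = 0.000109). Atp5g3 had a log2 difference of -0.37 ± 0.07 (adjusted p = 0.000999), and Atp5g2 fell by 0.51 on the log2 scale (adjusted p = 0.00690).

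The F1 head makes the ATP, and 3 of the 5 genes of the head and the central stalk fell. Atp5b (ENSMUSG00000025393, chr10:128083273-128090391) had 33005, 32022 and 34780.4 in P25-KO, 35504, 42206 and 33048 in P25-WT, 26134, 26623 and 27587 in P60-KO and 26529.7, 30051 and 27355 in P60-WT normalized counts. The ages were separate in every library, and the log2 difference was -0.35 ± 0.06 (adjusted p = 0.000411). The subunit that forms the head with it in equal number, Atp5a1, was at -0.10 ± 0.04 and did not pass (adjusted p = 0.0640). In the central stalk, Atp5d (-0.53 ± 0.07, adjusted p = 0.000186) and Atp5e (-0.67, adjusted p = 0.00196) fell and Atp5c1 did not pass with all libraries (-0.24 ± 0.09, adjusted p = 0.0532) and passed without P25-WT replicate 2 (-0.13 ± 0.04, adjusted p = 0.0276). Of the peripheral stalk, which holds the head still, 2 of 4 genes were lower, and Atp5j had a value of 0.06 that did not pass with all libraries, and 0.10 without P25-WT replicate 2, where it passed as higher (adjusted p = 0.0332). Of the small membrane subunits 3 of 4 were lower.

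**Figure D3:**
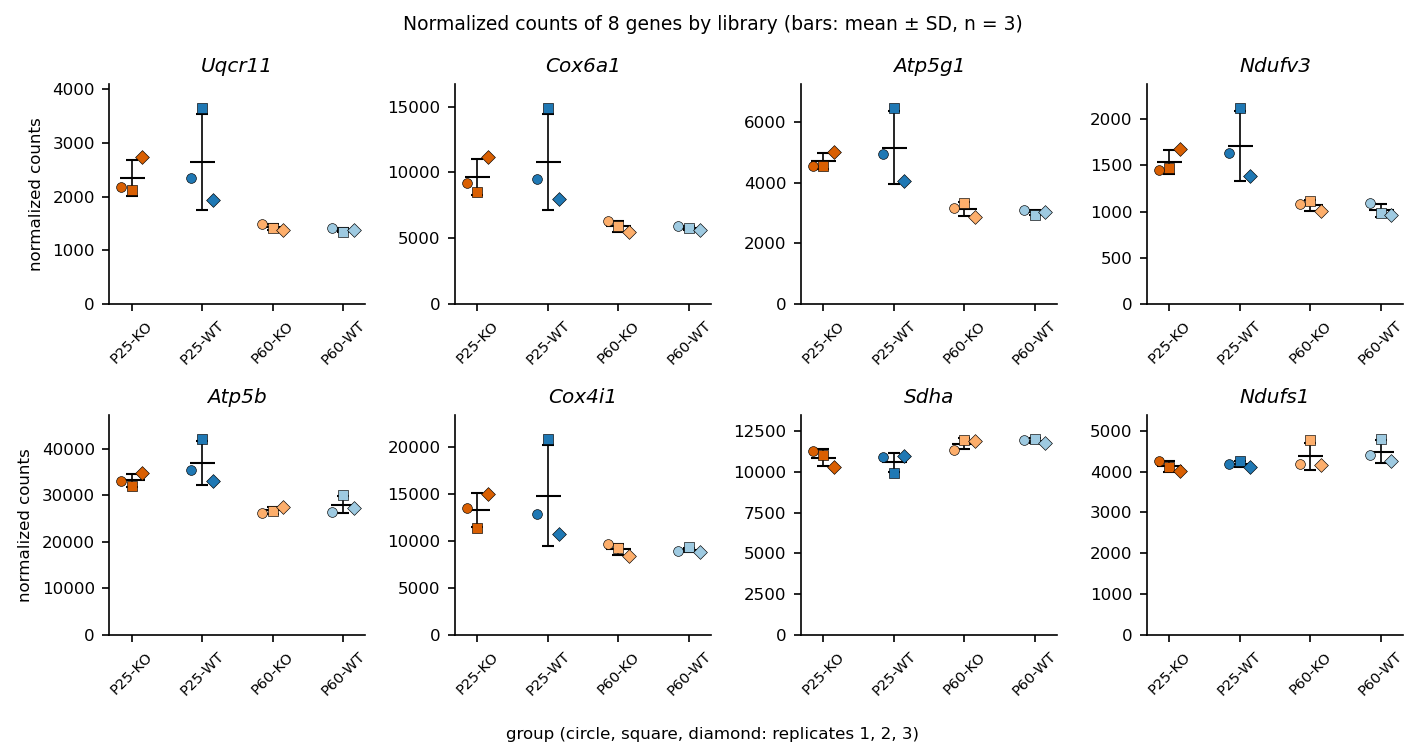
Normalized counts (vertical axis, from 0) of 8 genes in each library by group (horizontal axis), with group means ± SD (n = 3). Uqcr11, Cox6a1, Atp5g1, Ndufv3, Atp5b and Cox4i1 are lower in every P60 library than in any P25 library, Sdha is higher in every P60 library, and Ndufs1 overlaps between the ages.

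The difference between ages was also fitted within each genotype. In KO mice 35 of 85 genes were lower at P60 and 1, Ndufc2, was higher, against 11.3% lower and 9.37% higher of all genes. In WT mice 10 were lower (4.99% of all genes) and 0 higher (3.66% of all genes). The 10 in WT were Ndufa11, Ndufv3, Uqcr11, Cox6a1, Cox6a2, Cox6b1, Cox8a, Atp5b, Atp5d and Atp5g1, and all 10 were also lower in KO, where they made 28.6% of the 35. The median log2 difference was -0.37 in WT and -0.20 in KO. By position alone, all P60 libraries lay below all P25 libraries for 46 genes in WT (18.4% of all genes) and for 49 in KO (20.5% of all genes). The WT count was unstable: it fell to 0 without any of P25-WT replicate 1 or P60-WT replicates 1, 2 and 3, where 0.591% to 1.42% of all genes were lower. It rose to 21 without P25-WT replicate 2 (8.05% of all genes), where the median was -0.19, and to 52 without P25-WT replicate 3 (7.54% of all genes). In KO, 21 genes were lower and 1 higher without P25-KO replicate 3, against 6.89% and 5% of all genes. With all 12 libraries in the fit the order of the genotypes turned round. There, 31 genes were lower in WT (10.6% of all genes) and 12 in KO (7.83% of all genes). The genes with the smallest p in KO were Atp5g1 (-0.59 ± 0.07, adjusted p = 0.00073), Uqcr11 (-0.71 ± 0.09, adjusted p = 0.00135), Atp5d, Cox6a1, Cox6b1, Ndufv3, Uqcrc1, Ndufa3 and Sdhb. Ndufc2 rose by 0.24 on the log2 scale in KO (adjusted p = 0.0474), a call that was lost in 5 of the 6 fits that left out 1 library.

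The age differences of the 2 genotypes were compared by the interaction of genotype and age over all 12 libraries. No gene of the 85 passed, none of the 17594 genes did (0%), and at an unadjusted p under 0.05 limma gave 288 genes in all and 0 of the 85. The median interaction was 0.15, with 78 of 85 values positive, and -0.05 without P25-WT replicate 2. In limma, the 3 smallest p were those of Uqcc1 (0.27 ± 0.16, unadjusted p = 0.119), Uqcrq (0.42 ± 0.25, unadjusted p = 0.121) and Ndufc2 (0.34 ± 0.21, unadjusted p = 0.123), and none of them passed after adjustment in limma. Their values were 0.17, 0.15 and 0.12 without P25-WT replicate 2.

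KO and WT mice were then compared at each age. No gene of the respiratory chain or ATP synthase passed at P25, where 1 gene of 17515 did (0.00571%), or at P60, where 1 of 17610 did (0.00568%). At an unadjusted p under 0.05 limma gave 0 of 86 genes at P25 (238 of all genes) and 5 of 85 at P60 (440 of all genes). The genotype difference over both ages gave 0 of 85, against 1 of 17594 (0.00568%), and 0 of 85 at an unadjusted p under 0.05 (319 of all genes).

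The sign of the genotype difference at P25 turned on 1 library. With all 6 libraries, 77 of 86 genes had a lower mean in KO and the median log2 difference was -0.09, with medians from -0.11 in complex II to -0.09 in complex I. Without P25-WT replicate 2, 78 of 85 values were positive and the median was 0.09. No gene had all KO libraries above all WT libraries at P25 (2.26% of all genes) or all below (2.5% of all genes). The smallest p in limma were those of Uqcc1 (-0.20 ± 0.12, unadjusted p = 0.133), Atp5b (-0.14 ± 0.09, unadjusted p = 0.155) and Ndufa11 (-0.20 ± 0.16, unadjusted p = 0.227), and none of the 3 passed after adjustment. Over fits without 1 library they ranged from -0.33 to -0.096, from -0.22 to -0.043 and from -0.36 to -0.023, nearest 0 without P25-WT replicate 2 and farthest without P25-WT replicate 3 for each of the 3.

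At P60 the median was 0.05, and 68 of 85 values were positive. The median was 0.023 without P60-KO replicate 1, 0.085 without P60-KO replicate 3 and 0.012 with the length and GC trend removed. For 6 genes, Ndufb2, Ndufc1, Ndufc2, Ndufs5, Cox4i2 and Atp5l, all KO libraries lay above all WT libraries, which held for 4.16% of all genes, and for 0 they lay below (3.63% of all genes). Ndufs5, an accessory subunit of complex I, had the smallest unadjusted p. Its normalized counts at P60 were 1909, 1863 and 1737 in KO and 1633, 1635 and 1596 in WT, and the log2 difference was 0.18 ± 0.06 (limma, unadjusted p = 0.0122). Ndufb2 (0.21 ± 0.08, unadjusted p = 0.0201 in limma) and Ndufc1 (0.20 ± 0.08, unadjusted p = 0.0361 in limma), both of the membrane arm, came next, and none of the 3 passed the adjusted threshold. Over both ages the smallest were Atp5b (-0.10 ± 0.06, unadjusted p = 0.0898 in limma), Cox4i2 (0.17 ± 0.14, unadjusted p = 0.255) and Cox7a1 (-0.19 ± 0.18, unadjusted p = 0.317). Without 1 library Atp5b ranged from -0.14 to -0.052, the latter without P25-WT replicate 2, Cox4i2 from 0.11 without P25-KO replicate 2 to 0.23, and Cox7a1 from -0.31 without P60-WT replicate 3 to -0.10 without P60-WT replicate 2. A p that misses the threshold does not show that the genotypes were alike.

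**Figure D4:**
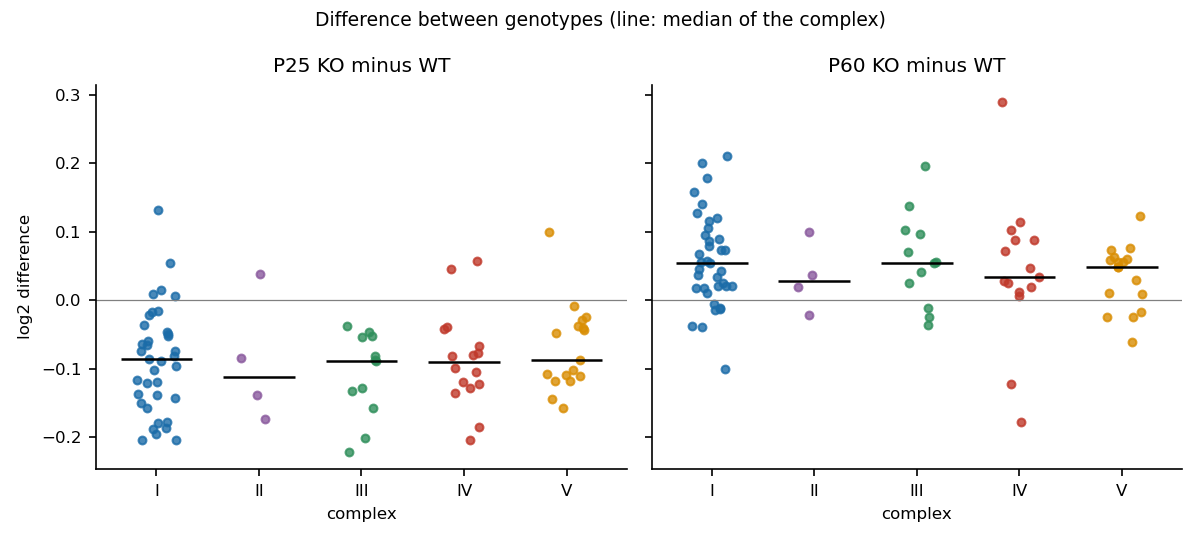
KO minus WT log2 difference (vertical axis) of each gene by complex (horizontal axis), at P25 with 86 genes and at P60 with 85, with the median of each complex as a line. The medians lie between -0.11 and -0.09 at P25 and between 0.03 and 0.05 at P60, and without P25-WT replicate 2 the median over all genes at P25 is 0.09.

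Transcript properties moved with the age difference. The genes were short, with a median transcript of 729.5 bases against 2569.5 for all genes, and had a median GC content of 52.2% against 50.2%. The 49 genes that were lower at P60 had a median GC content of 54.9%, and the other 36 tested had 48.9%. Across the 85 genes Spearman's rho of the age difference was -0.61 with GC content and 0.38 with length. Across all genes of the table it was -0.36 and 0.21. These are correlations across genes, which are not independent. When trends on length and GC content were removed from each library, 43 genes were lower and none higher, against 17.1% lower and 14.9% higher of all genes in that fit, 35 of the 50 original calls remained and the median was -0.21. With the total scaling added, 33 were lower and 2 higher, against 13% and 19.7% of all genes, 29 of the 50 calls remained and the median was -0.17. The part of GC content in the difference was not tested beyond this. Of the 10 genes with the NRF1 core in their promoter window 9 were lower at P60, as were 31 of 59 tested without it. For the ETS core this was 13 of 16 against 27 of 53, and for the YY1 core 6 of 11 against 34 of 58. Of all genes tested, with or without a motif, 18.5% were lower in this fit. The share among all genes with each motif was not computed, so the part of the motifs in the difference was not tested.

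**Figure D5:**
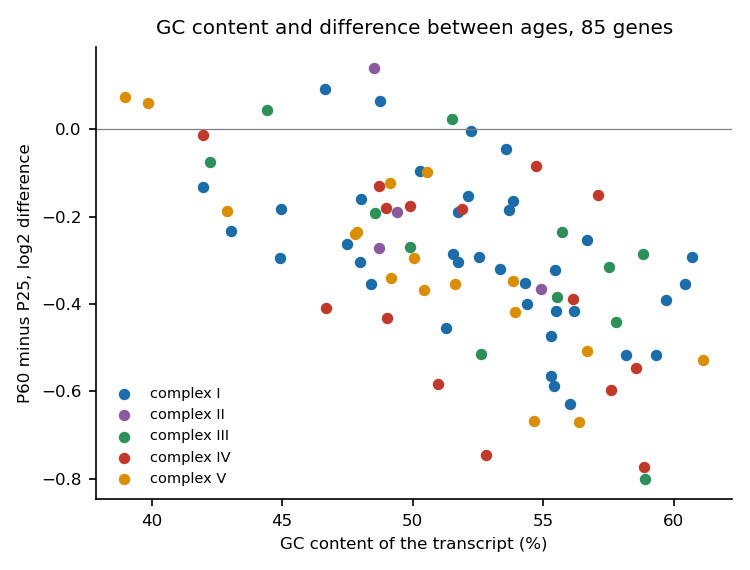
P60 minus P25 log2 difference (vertical axis) against GC content of the transcript in percent (horizontal axis) for the 85 genes tested, coloured by complex. Values fall with GC content (Spearman's rho -0.61), with the genes of all 5 complexes mixed along the range.

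Other genes of the oxidative route were described by lists, and their counts stand beside 17.5% higher and 18.5% lower among all genes tested. Of the 13 subunits encoded by the mitochondrial genome, 11 were higher at P60 (84.6%) and 1 lower (median log2 difference 0.25). Among them were mt-Nd2 of complex I (0.36, adjusted p = 7.34e-05) and mt-Co2 of complex IV (0.64, adjusted p = 0.000238), while mt-Co3 of complex IV fell by 0.55 on the log2 scale (adjusted p = 0.00534). The nuclear and the mitochondrial subunits of complexes I, III, IV and V thus had medians of opposite sign.

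Assembly factors build the complexes. The list for complex I also holds Ndufab1, a subunit of complex I whose symbol the rule did not match. Ndufab1 did not pass with all libraries (0.17, adjusted p = 0.144). It was among the genes called higher without P25-WT replicate 2 (0.27, adjusted p = 0.00202). For complex I 2 of 18 were higher (11.1%) and 4 lower (22.2%), or 4 and 2 without P25-WT replicate 2, with Tmem126b at 0.26 (adjusted p = 0.00546) and Ecsit at -0.27 (adjusted p = 0.00451). For complex II 0 of 4 passed. For complex III 1 of 3 was higher (Ttc19, 0.25, adjusted p = 0.00139) and 1 lower (Bcs1l, -0.23, adjusted p = 0.0222). For complex IV 1 of 24 was higher (Cox20, 0.36, adjusted p = 0.017) and 8 were lower (33.3%), among them Cox10, which makes heme for the complex (-0.23, adjusted p = 0.00324). For complex V 4 of 5 were lower, including Atpif1, which is the inhibitor of ATP hydrolysis and not an assembly factor (-0.43, adjusted p = 0.012).

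Of cytochrome c and the ubiquinone synthesis genes 1 of 15 was higher and 1 lower (6.67% each). In the citric acid cycle 4 of 14 were lower (28.6%), with Ogdh at -0.19 and Mdh2 at -0.21 (adjusted p = 0.00099 and 0.00348), and of the genes for pyruvate entry 2 of 11 were higher (18.2%), or 1 without P25-WT replicate 2, with Pdk4, which switches pyruvate dehydrogenase off, at 0.41 (adjusted p = 0.0116). In glycolysis 7 of 17 were lower (41.2%) and 1 higher, with Ldha at -0.27 (adjusted p = 0.000897) and Pfkp at 0.23 (adjusted p = 0.00297). Of the uncoupling and energy transfer genes 5 of 10 were lower (50%), among them the creatine kinases Ckb and Ckmt1 (both -0.25), and 1 was higher (Slc25a27, 0.40, adjusted p = 0.00029). Of the regulators of mitochondrial biogenesis 7 of 18 were higher (38.9%), including Gabpb2, a partner of GABPA (0.58, adjusted p = 6.66e-05), and Sirt1 (0.45, adjusted p = 0.00149), and 2 were lower, Tfam, which packs and transcribes mitochondrial DNA (-0.39, adjusted p = 0.0146), and Sirt3 (-0.28, adjusted p = 0.0286). In the fit without P25-WT replicate 2 the other lists of assembly factors had 1 higher gene for complex II, 3 higher for complex IV, and 1 higher and 3 lower for complex V, and the citric acid cycle had 1 higher. None of the genes in these lists passed in a genotype comparison.

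Several other groups had lower levels at P60 as well. Of the ribosomal protein genes 29 of 81 cytosolic (35.8%, median -0.22) and 29 of 78 mitochondrial (37.2%, median -0.19) were lower, and 3 and 1 were higher. Without P25-WT replicate 2, 29 and 28 were lower, 6 and 8 were higher and the medians were -0.099 and -0.089. All 6 oligodendrocyte markers fell (median -1.26), and their summed level was 367226 to 480416 normalized counts at P25 and 182114 to 208111 at P60. All 3 blood markers fell (median -2.07), 4 of 5 astrocyte markers and 2 of 5 microglia markers were lower, and of 5 neuron markers 2 were higher and 1 lower. Of the endothelial and choroid plexus markers 1 of 4 and 1 of 3 were higher, and of the 3 smooth muscle markers none passed. Every marker of these lists had a mean of at least 88.7 normalized counts at each age, the lowest being Alas2 of the blood list at P60. None of the microglia and endothelial markers passed without P25-WT replicate 2, and the counts of the other marker lists were the same. The part of these cell types in the age difference was not tested.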

How the data were processed

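RNA-seq was analysed from 12 forebrain libraries, 3 per group, and the titles of the samples gave the groups and replicate numbers. As the submitters' processing notes have it, the authors used Salmon 1.1.0, R 3.6.2 and DESeq2 1.26.0 with build GRCm38, and the study's methods name other versions of R and DESeq2, a GC bias correction and tximport. The deposited values are signal on a count scale, normalized by the authors over all libraries, and not whole reads, so no count model was run, and the depth behind each value is unknown. No interval or floor was computed. The annotation is not given in the sources used here. The kit does not keep strand, so overlapping antisense genes cannot be told apart.

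Symbols, positions, lengths (shortest APPRIS principal transcript, with the longest as an alternative added after the data were seen) and GC content came from GENCODE M21, in which 19252 of 19268 identifiers were found. Of the 86 genes, 22 share more than 10% of their 31-base words with other genes, and none shares more than 50%. limma 3.58.1 in R 4.3.3 was run on log2(value + 1) with an intensity trend, over all genes with a mean of at least 10, and Benjamini-Hochberg adjusted p under 0.05 was the threshold. Differences are on this scale, which understates changes of low genes, and ± beside them is the standard error. Within-age and within-genotype comparisons used 6 libraries, the others all 12. The procedure was tested on simulated data. Members, lists, tests and alternatives were chosen with earlier results of these data known, and lists describe and were not tested as sets.

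One gene is counted in the totals but not reported here by name. Named were the other catalytic and redox subunits, the paralog sets, the genes that passed (where over 10 passed, the 2 with the smallest p per complex and direction), the 3 smallest p in genotype comparisons and the interaction, and the highest and lowest level per complex. From other lists up to 2 genes per direction were eligible. The other genes named, among them Cox7c, Atp5e, Atp5j, Uqcc2, Uqcc3 and Atp5l, and the 4 promoters printed were chosen after their values were seen. The alternatives were another pseudocount, no minimum mean, other scalings, no intensity trend, library weights, removal of the length and GC trend, a replicate block, all 12 libraries in 1 fit, and leaving out each library.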

Additional observations from a re-analysis of the deposited data

How the results depend on the processing

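The median log2 difference between ages over both genotypes stayed negative under every alternative run (-0.36 to -0.17). The number of genes called stayed between 35 and 70, against 50 (17.5% of all genes higher and 18.5% lower). It was 35 with total scaling and the length and GC trend removed together (19.7% and 13%). It was 70 without P25-WT replicate 3 (18.4% and 20%). The WT count of 10 (3.66% of all genes higher and 4.99% lower) moved to 0 without the intensity trend (0.341% and 0.751%), 61 with library weights (23.4% and 23.6%), 18 with the replicate block (4.5% and 5.68%) and 32 with all 12 libraries in the fit (8.92% and 10.6%). It ranged from 0 to 52 over fits without 1 library, with medians from -0.52 to -0.19. Where it was 0, 0.102% to 0.718% of all genes were higher and 0.591% to 1.42% lower, and where it was 52, 5.59% and 7.54%. The KO count of 36 (9.37% and 11.3%) moved to 16 without the trend (4.14% and 5.67%), to 12 with all 12 libraries (6.38% and 7.83%) and to 21 with total scaling and the length and GC trend removed together (9.63% and 6.99%), an alternative added after the data were seen. Leaving out 1 library gave 22 (5% and 6.89%, without P25-KO replicate 3) to 43 (6.77% and 9.13%, without P25-KO replicate 2). The interaction median of 0.15 ranged from -0.052 to 0.30 over fits without 1 library. At P25 the KO minus WT median ranged from -0.24 to 0.09. The cause of these moves was not tested. No alternative called any of the genes in a genotype comparison or in the interaction. With the length and GC trend removed, Uqcrc2 changed sign to -0.040, Cox4i2 to 0.058 and Cox7a1 to 0.057, and with total scaling Cox7b changed to 0.030. Without 1 library Uqcrc2 ranged from -0.00445 to 0.12, Cox4i2 from -0.21 to -0.093, Cox7a1 from -0.17 to 0.039 and Cox7b from -0.067 to 0.084. None of these passed in the fit to all libraries. Replicate numbers are shared between the groups, but the correlations of same-numbered libraries lay between -0.07 and 0.17 and did not pass 0.1 for all numbers in any comparison, so they were not taken to pair libraries. With the block 48 genes were called between ages (17.7% of all genes higher and 18.5% lower), 47 of them among the original 50. In KO the block gave 26 (6.09% and 8.01%). The symbols and synonyms of RefSeq found 89 genes. Only 3 libraries a group and an unknown depth limit the precision.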
